A study of Arabidopsis thaliana with 4 samples.

Results

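The comparison was a difference of 2 responses in Arabidopsis thaliana roots: the log2 ratio with aluminium over without aluminium in the mutant coi1-2, minus the same ratio in the wild type Col. All 4 of the 4 libraries entered it, 1 per group: coi1-2 with Al, coi1-2 without Al, Col with Al and Col without Al. Each sample held the roots of about 500 seedlings, 6 days old, grown in 2% MGRL nutrient solution at pH 5.0 and moved to the same solution with 10 or 0 µM AlCl3; both genotypes had the same handling and no other agent. Exposure lasted 6 h by the treatment protocol and the titles, but 24 h by the text on the series, and the libraries without Al carry 0 h in their titles although the protocol describes 6 h at 0 µM. If those were taken at the start, time in solution and time of day cannot be told apart from Al in either response. With 1 library per group, 0 residual degrees of freedom remain for a difference of responses, so no test was possible, and every value describes these libraries. All loci were used, summed over isoforms: 17514 of the 23381 loci with any read reached 1 RPKM (reads per kilobase of transcript and 1e6 reads) in at least 1 library and were compared.

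COI1 is the F-box protein that, as part of a ubiquitin ligase, perceives the conjugated hormone jasmonoyl-isoleucine together with JAZ repressors. JAZ proteins are then degraded and release MYC2 and related transcription factors, which switch on jasmonate-responsive genes, among them genes for jasmonate synthesis and inactivation. In acid solution Al enters and damages root tips, and roots exclude it by releasing organic acids that bind it, a response for which the transcription factor STOP1 and the malate channel ALMT1 are known. The allele coi1-2 is known as leaky, that is, it keeps part of the function.

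Depth was similar in the 4 libraries. They held 7.19 M (1e6) reads for coi1-2 with Al, 7.42 M for coi1-2 without Al, 6.93 M for Col with Al and 7.80 M for Col without Al, so 3 reads corresponded to between 0.385 and 0.433 reads per 1e6. The scaling factors (trimmed mean of M values, TMM) were 0.929, 1.204, 0.752 and 1.19 in that order. Reads covered a median share of each transcript that was 47.9% in coi1-2 with Al, 55.4% in coi1-2 without Al, 42.2% in Col with Al and 55.9% in Col without Al, so it was lower in both libraries with Al and lowest in Col with Al. COI1 itself, on chromosome 2 from 16672493 to 16675748, stood at 31.6 scaled RPKM with Al and 24.7 without Al in coi1-2, and at 26.1 with Al and 28.5 without Al in Col. A point mutation need not change the transcript's level, so COI1 does not check the genotype labels. Markers of root tissue were present in every library: the summed level of 10 endodermis genes was 229.2 and 824.7 scaled RPKM in coi1-2 with and without Al, and 173.4 and 796.8 in Col with and without Al. In bulk roots, fewer cells of a type and less RNA per cell cannot be told apart.

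Levels are given as the authors' RPKM divided by the library's TMM factor (scaled RPKM), and responses as log2 ratios of scaled RPKM + 0.5, which understates changes of weakly read genes. A difference was called higher or lower in coi1-2 when it was at least 1 log2 unit and its 95% counting interval, a normal approximation from the reads, excluded 0. PCR copies are not independent molecules, so these intervals cover counting error only. The responses were broader in Col: 31.2% of the compared loci moved by at least 1 log2 unit with Al in coi1-2, against 44.6% in Col, and the SD over loci was 1.16 in coi1-2 and 1.38 in Col. Both gaps narrowed when the trend over transcript length described below was removed. The shares were then 27.3% in coi1-2 and 34.35% in Col, and the SD 1.11 in coi1-2 and 1.22 in Col. The difference was called higher in coi1-2 for 497 loci (2.84% of those compared) and lower for 733 (4.19%), that is, 40.4% of the calls were higher. This split depended on the scaling. Without the factors 1227 loci were called higher and 334 lower (78.6% higher), because the median difference moved to 0.25.

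Transcript length moved with both responses. In the shortest decile of transcripts (75 to 650 nt) the median Al response was 0.51 in coi1-2 and 1.06 in Col, and in the longest decile (2667 to 16347 nt) it was -0.64 in coi1-2 and -1.07 in Col. The median difference therefore ran over length, at -0.55 in the shortest decile and 0.46 in the longest. The ratio of coi1-2 over Col with Al had a median of -0.62 in the shortest decile and 0.53 in the longest, whereas without Al its medians lay between -0.06 and 0.07 in every decile. Coverage moved with Al as given above, and its part in the length trend was not tested. When a smooth trend over length was taken out of each response, 358 loci were called higher (2.04%) and 410 lower (2.34%), of which 244 and 317 were also called before. In what follows, a retained call is one that also kept its sign and at least 1 log2 unit without scaling and with the trend removed. There were 252 retained higher calls (1.44% of the compared loci) and 311 retained lower calls (1.78%), out of 1230 calls. The rule was stricter for lower calls, because differences moved upward without scaling. All 497 higher calls but only 334 of the 733 lower calls were also made without scaling. The smallest retained differences were 1.01 among higher and -1.25 among lower calls. Retained counts of the 2 directions are therefore not on an equal footing.

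**Figure D1:**
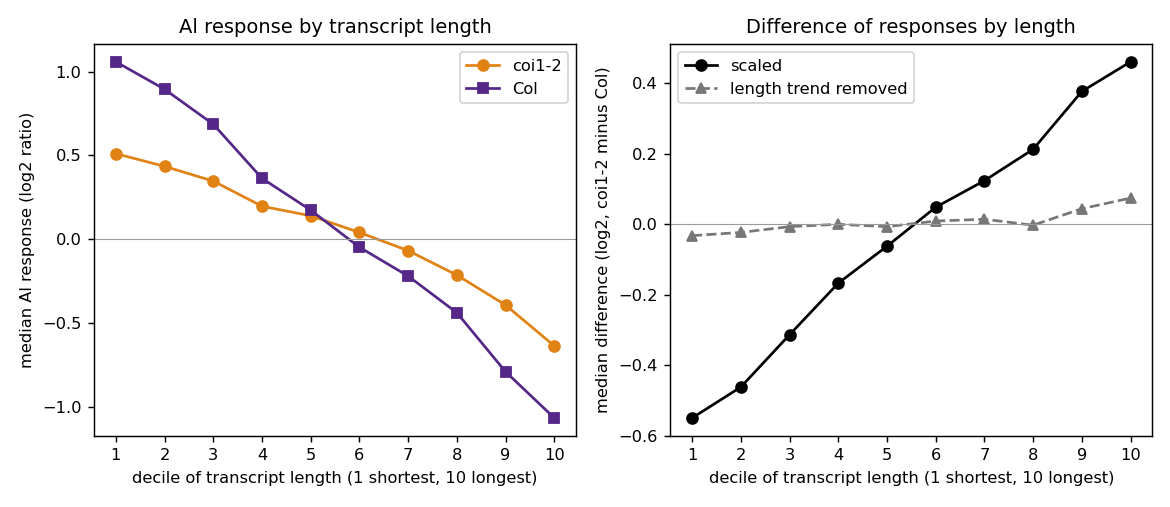
Left, the median Al response (log2 ratio, with over without Al) of coi1-2 (circles) and Col (squares) in 10 deciles of transcript length, and right, the median difference of responses (coi1-2 minus Col) before (circles) and after (triangles) the length trend was removed. Both responses ran downward with length, more steeply in Col (1.06 to -1.07) than in coi1-2 (0.51 to -0.64), and the difference ran upward until the trend was removed.

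Most retained calls were responses of Col that were smaller or missing in coi1-2. Of the 311 retained lower loci, 210 were higher with Al in Col, and 140 of those had no called response in coi1-2; 88 were lower with Al in coi1-2, of which 66 had no called response in Col. Of the 252 retained higher loci, 148 were lower with Al in Col, 108 of them with no called response in coi1-2, and 72 were higher with Al in coi1-2, 53 of them with no called response in Col. For scale, 14.9% and 14.5% of all compared loci were called higher and lower with Al in coi1-2, and 22.1% and 20.6% in Col; these classes use the same libraries as the difference and are given as a description. Split by genotype, 189 of the 311 retained lower loci were lower in coi1-2 than in Col with Al and 57 were higher in coi1-2 without Al. Among the 252 retained higher loci, 102 were higher in coi1-2 than in Col with Al and 55 were lower in coi1-2 without Al. Over all compared loci, 3% were higher and 4.69% lower in coi1-2 with Al, and 1.24% higher and 1.32% lower in coi1-2 without Al. The difference of responses equals the log2 genotype ratio with Al minus that without Al. Loci chosen for a large difference are therefore shifted in either ratio or in both, and these counts are given as a description. Some retained loci also differed in starting level, as LOX4 and WRKY46 below.

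**Figure D2:**
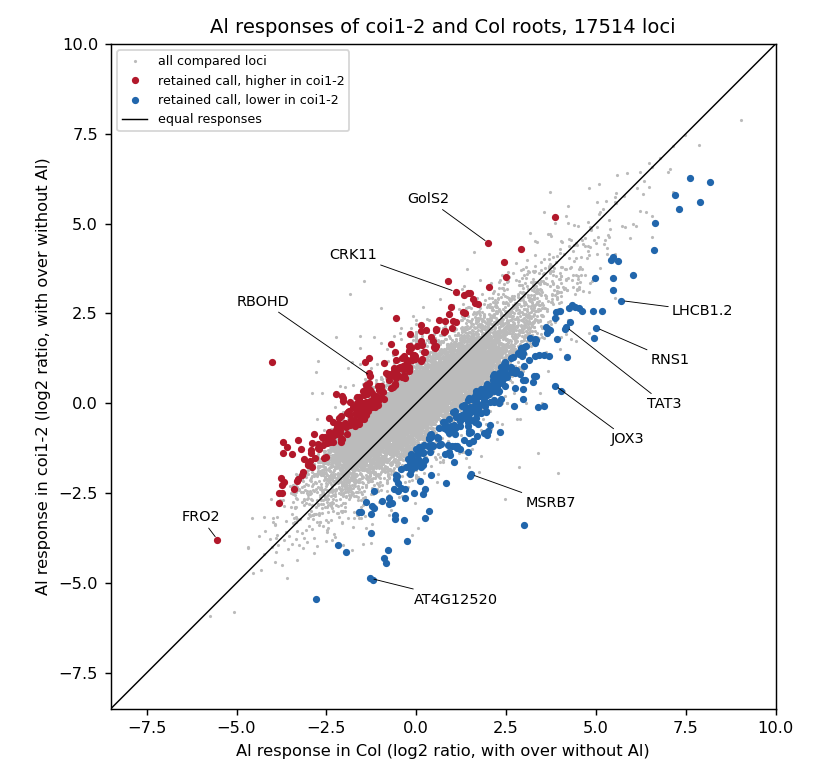
Al response (log2 ratio, with over without Al) of each of the 17514 compared loci in coi1-2 (vertical) against Col (horizontal), with retained calls in red (higher in coi1-2, 252) and blue (lower, 311). Labelled genes are described in the text; points on the line respond equally in both genotypes.

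**Figure D3:**
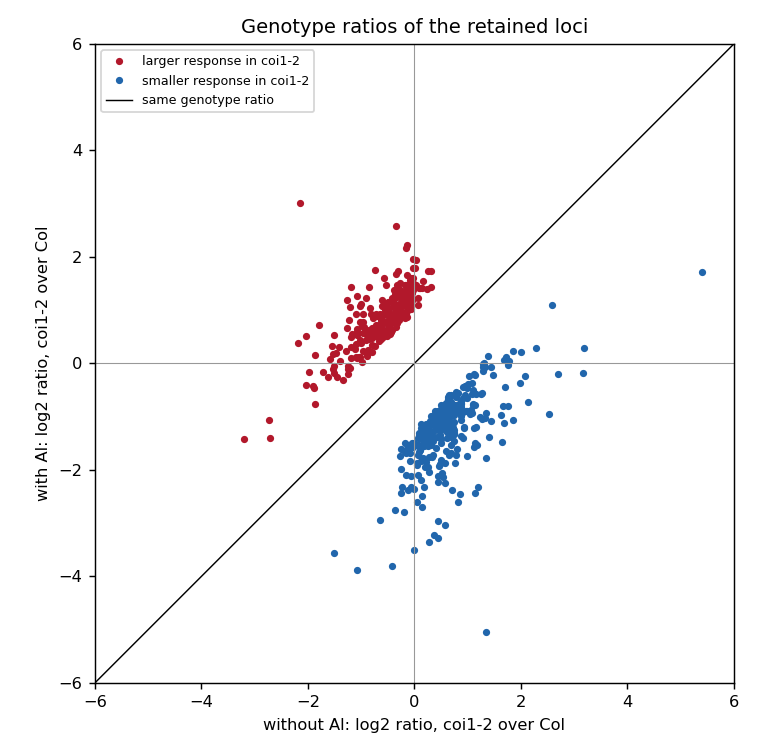
Ratio of coi1-2 over Col (log2) with Al (vertical) and without Al (horizontal) for the 563 loci with retained calls. Red points (larger response in coi1-2) had a median of 0.88 with Al and -0.51 without Al, and blue points (smaller response) a median of -1.17 with Al and 0.60 without Al. The side of the line on which each colour lies is fixed by the choice of loci.

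Counts of calls in the lists and families below stand beside 2.84% higher and 4.19% lower calls over all compared loci. Single calls in a list are not read as a result about the list. Of the 24 jasmonate signalling genes, 18 passed the filter on low values and none was called. Their median difference was 0.27, beside 0.0061 over all compared loci. MYC2, the transcription factor that JAZ proteins repress, stood at 25.4 scaled RPKM with Al and 65.4 without Al in coi1-2, and at 29.3 with Al and 109 without Al in Col. It was lower with Al in both genotypes, and its difference was 0.53 (95% counting interval 0.30 to 0.77), under the size of 1. JAZ2 had 36.4 scaled RPKM with Al and 22.1 without Al in coi1-2, and 88.3 with Al and 65.7 without Al in Col, a genotype gap present in both treatments with a difference of responses of only 0.28 (-0.0031 to 0.57). JAZ12, by contrast, reached 72.0 in coi1-2 and 105 in Col with Al, and was alike without Al (44.1 in coi1-2 and 43.6 in Col). The JAZ12 difference was -0.55 (-0.81 to -0.29), also under the size of 1. JAZ1 had 0.676 with Al and 2.40 without Al in coi1-2 and 5.05 and 5.67 in Col; its difference of -1.15 (-2.51 to 0.21) was not called, and reads of its 2 listed isoforms were summed.

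Among the jasmonate biosynthesis genes, 14 of 17 passed the filter, 2 were called higher and none lower, with a median of 0.42. The median was 0.30 with the length trend removed. LOX4, a lipoxygenase that starts jasmonate synthesis in plastids, had 3.297 scaled RPKM with Al and 1.21 without Al in coi1-2, and 2.40 with Al and 7.30 without Al in Col. It was higher with Al in coi1-2 and lower with Al in Col, and the 2 genotypes were close with Al and far apart without it; the difference was 2.58 (1.80 to 3.35). Its relative LOX3 was lower in coi1-2 than in Col in both treatments, with 0.202 and 0.0757 scaled RPKM in coi1-2 with and without Al and 2.01 and 3.79 in Col with and without Al, and it rested on 4 and 2 reads in coi1-2 and was not called. ACX1, an acyl-CoA oxidase of the peroxisomal steps, was called at 1.16 but fell under 1 with the length trend removed (0.80). AOS, the allene oxide synthase, had 25.3 scaled RPKM with Al and 18.3 without Al in coi1-2 and 50.1 in each Col library. Its difference of 0.46 (0.18 to 0.74) was not called. KAT2, the thiolase of beta-oxidation and the most abundant gene of the list, was higher with Al in both genotypes, at 735 and 306 in coi1-2 with and without Al and at 961 and 295 in Col with and without Al.

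Jasmonate turnover held calls in both directions. JOX3, which hydroxylates and so inactivates jasmonic acid, had 0.432 scaled RPKM with Al and 0.161 without Al in coi1-2, and 12.5 with Al and 0.389 without Al in Col. Only the library of Col with Al was high (90 reads, against 5 in Col without Al and 4 and 2 in coi1-2 with and without Al), and the difference was -3.37 (-5.92 to -0.82). JOX2, of the same family, had 40.7 and 23.0 in coi1-2 with and without Al and 153 and 36.8 in Col with and without Al. Its difference of -1.23 (-1.498 to -0.96) was called, but it was -0.94 without scaling and so was not retained. JOX4 had 2.69 in coi1-2 with Al and 0 reads in coi1-2 without Al, and 42.3 and 1.85 in Col with and without Al; with 0 reads in a library its difference could not be bounded usefully (-5.60 to 2.57). CYP94B3, which oxidises jasmonoyl-isoleucine, went the other way: 24.2 and 26.2 scaled RPKM in coi1-2 with and without Al were level, while Col had 29.0 with Al and 81.7 without Al. The CYP94B3 difference was 1.37 (1.08 to 1.66) and retained. In all, 9 of 10 turnover genes passed the filter, with 1 called higher and 2 lower and a median of -0.21.

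Of 18 jasmonate-responsive defence genes, 10 passed the filter and 8 had no read in any library. Among the 10, 1 was called higher and 3 lower, with a median of -0.89 and 8 of 10 below 0. With the length trend removed 1 was called higher and 2 lower, and the median was -0.56. TAT3, a tyrosine aminotransferase induced by jasmonate, had 2.28 scaled RPKM with Al and 0.136 without Al in coi1-2, and 32.3 with Al and 1.31 without Al in Col. It was higher with Al in both genotypes but lower in coi1-2 than in Col in either treatment, with a difference of -2.05 (-4.03 to -0.07). The value of 0.136 is 2 reads, so the size of this difference depends on the 0.5 added to each level. The counting interval does not cover that, and the call is weakly based. ANAC019, a stress-related NAC factor, had 3.74 in coi1-2 with Al, 0 reads in coi1-2 without Al, and 18.1 and 0.168 in Col with and without Al. It was not called. RAP2.6 (-1.06) and PR4 (-1.02), an ERF factor and a chitin-binding protein, were called lower but not retained. ERF109, an early stress-induced ERF factor, was lower with Al in both genotypes. It had 0.540 and 3.88 in coi1-2 with and without Al and 1.66 and 28.6 in Col with and without Al. Its difference was 1.68 (0.17 to 3.19). The value of 0.540 is 5 reads, so this difference too depends on the added 0.5. No call was made among the 11 of 16 ER body genes past the filter, a jasmonate-linked myrosinase system (median -0.09).

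Of 21 known Al resistance genes, 18 passed the filter, 3 were called higher and 2 lower, 9 lay above 0 and 9 below, and the median was 0.0065. ALMT1 had 21.7 scaled RPKM with Al and 0.214 without Al in coi1-2, and 11.4 with Al and 0.0688 without Al in Col. It was high in both libraries with Al and rested on 3 reads in coi1-2 without Al and 1 read in Col without Al, so the difference of 0.57 had the wide interval of -2.21 to 3.35. ALS3, a transporter subunit needed for Al tolerance, had 30.6 and 8.43 in coi1-2 with and without Al and 51.4 and 10.3 in Col with and without Al, with a difference of -0.46 (-0.999 to 0.08). MATE, the citrate transporter, with 8 and 2 reads in coi1-2 with and without Al and 2 and 3 reads in Col with and without Al, lay below the filter. STOP1 likewise lay below it, with 3 reads in coi1-2 with Al and 0 in the other libraries, and no statement is possible for either gene.

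BCB, a blue copper-binding protein named for Al tolerance, had 79.0 scaled RPKM with Al and 1.68 without Al in coi1-2, and 208 with Al and 13.9 without Al in Col. Its level was lower in coi1-2 in either treatment, more so without Al, which gave a difference of 1.33 (0.53 to 2.13). TDT, the tonoplast dicarboxylate transporter that moves malate, had 34.8 and 14.3 in coi1-2 with and without Al, and 69.7 and 10.8 in Col with and without Al. The TDT difference of -1.38 (-1.67 to -1.08) was the retained lower call of the list. GDH2, a glutamate dehydrogenase, was called at 1.07 (0.35 to 1.78), whereas its relative GDH1 (261 and 26.3 in coi1-2 with and without Al, 267 and 27.5 in Col with and without Al) responded alike in both genotypes.

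RBOHD, WRKY46, CRK10 and CRK11 were among the highest retained differences. RBOHD, the NADPH oxidase that makes extracellular reactive oxygen in defence, had 46.8 scaled RPKM with Al and 27.4 without Al in coi1-2, and 26.4 with Al and 64.4 without Al in Col. The genotypes crossed: coi1-2 was above Col with Al and below it without Al, and the difference was 2.03 (1.83 to 2.24). WRKY46, a transcription factor known to repress ALMT1, had 11.9 and 2.75 in coi1-2 with and without Al and 5.34 and 6.09 in Col with and without Al. It responded in coi1-2 and was level in Col, with a difference of 2.11 (1.27 to 2.94).

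CRK10 and CRK11, cysteine-rich receptor-like kinases that neighbour each other on chromosome 4, were both called. CRK10 had 9.52 scaled RPKM with Al and 2.71 without Al in coi1-2, and 3.69 with Al and 6.32 without Al in Col. CRK11 had 34.9 and 3.61 in coi1-2 with and without Al and 18.3 and 8.28 in Col with and without Al. Both were highest in coi1-2 with Al and lowest in coi1-2 without Al, with differences of 2.34 (1.67 to 3.02) and 2.01 (1.56 to 2.46). Their promoters are shown because the genes moved together; each is the 250 bases before the RefSeq gene start on TAIR10.1, CRK10 at chr4:12137745-12137994 on the plus strand and CRK11 at chr4:12143859-12144108 on the minus strand, written 5′ to 3′ with every TTGAC (the W-box core of WRKY factors), on either strand, in capitals.
CRK10: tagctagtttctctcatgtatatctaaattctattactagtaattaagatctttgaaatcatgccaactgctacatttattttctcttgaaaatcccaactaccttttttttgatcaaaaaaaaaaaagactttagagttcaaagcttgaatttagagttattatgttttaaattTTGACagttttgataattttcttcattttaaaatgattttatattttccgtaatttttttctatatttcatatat
CRK11: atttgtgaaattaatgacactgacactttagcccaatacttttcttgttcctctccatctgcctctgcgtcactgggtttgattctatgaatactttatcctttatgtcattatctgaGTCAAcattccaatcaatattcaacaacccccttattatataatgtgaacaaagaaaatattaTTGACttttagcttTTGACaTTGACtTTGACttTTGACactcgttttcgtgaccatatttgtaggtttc
CRK11 held 6 copies and CRK10 held 1. The core stood in 54.4% of 250 promoters of retained higher loci, 43.8% of 299 promoters of retained lower loci and 45.9% of 17366 promoters of compared loci. It stood in 52.8% of 72 promoters of retained higher loci that were higher with Al in coi1-2. Among all loci higher with Al in coi1-2 the share was 51.3%. This is a description, and none of these matches is shown to be a site.

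Of the 15 cysteine-rich receptor-like kinases past the filter, a family counted after values were seen, all had differences above 0, 3 were called and 2 retained, and the median was 0.77, or 0.53 with the length trend removed. The wall-associated kinase-like genes WAKL2, WAKL4 and WAKL5, which lie close together on chromosome 1, had retained differences of 1.47, 1.88 and 2.33. WAKL5 was lower with Al in both genotypes, at 2.94 and 8.49 scaled RPKM in coi1-2 with and without Al, and at 0.269 and 9.59 in Col with and without Al, the value of 0.269 being 3 reads. Of the 13 genes of that family past the filter, which was also counted after values were seen, 4 were called higher and none lower, 3 lay below 0, and the median was 0.81, or 0.44 with 3 calls when the length trend was removed. AT2G17660, annotated as a RIN4 family protein, had the highest difference of the loci averaging 5 RPKM or more: 10.4 and 22.6 in coi1-2 with and without Al, 3.56 and 52.5 in Col with and without Al, and 2.63 (1.47 to 3.78).

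WRKY factors, many of them regulators of defence, gave 6 higher and 2 lower calls among the 57 of 67 past the filter. The shares over all compared loci were 2.84% higher and 4.19% lower. Of the WRKY calls, 6 higher and no lower were retained, and the median was 0.0068. WRKY53 had 11.96 scaled RPKM with Al and 26.2 without Al in coi1-2, and 3.42 with Al and 28.8 without Al in Col. WRKY40 had 7.64 and 9.27 in coi1-2 with and without Al, and 10.3 and 39.7 in Col with and without Al. The first was low in Col with Al and the second was high in Col without Al, and the differences were 1.80 (1.17 to 2.43) and 1.64 (1.04 to 2.23). The other retained members were WRKY46, WRKY30 (1.46), WRKY59 (1.32) and WRKY28 (1.03). In the touch and wounding list, which holds WRKY40 and WRKY53, 11 of the 12 genes past the filter were above 0, 2 were called, and the median was 0.50, or 0.65 with the length trend removed. ACS6, which makes the ethylene precursor and is induced by wounding, was the only call among 20 ethylene genes (median 0.05): 33.0 and 28.3 in coi1-2 with and without Al, 21.9 and 50.3 in Col with and without Al, and a difference of 1.40 (1.099 to 1.69).

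Among tryptophan and indole glucosinolate genes, 26 of 27 passed the filter, 3 were called higher and none lower, and the median was -0.011, so the calls were single genes rather than the list. MYB51, a regulator of indole glucosinolate synthesis, had 59.5 scaled RPKM with Al and 29.2 without Al in coi1-2, and 41.6 with Al and 51.9 without Al in Col. IGMT2, which methylates indole glucosinolates, had 83.0 and 26.7 in coi1-2 with and without Al and 61.5 and 54.4 in Col with and without Al. Each was higher with Al in coi1-2, while the Col responses were -0.31 for MYB51 and 0.18 for IGMT2, with differences of 1.33 (1.08 to 1.58) for MYB51 and 1.44 (1.19 to 1.70) for IGMT2. PAD3, the last enzyme of camalexin synthesis, was higher with Al in both genotypes and more so in coi1-2, at 21.5 and 2.70 in coi1-2 with and without Al, 14.0 and 4.16 in Col with and without Al, and 1.14 (0.49 to 1.79). IGMT2 has near-identical neighbours, and reads of such copies may be split between them.

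Of 23 iron deficiency genes 18 passed the filter, and 6 of them were called lower and 3 higher with Al in each genotype. FRO2, the root ferric reductase, had 17.398 scaled RPKM with Al and 247 without Al in coi1-2, and 8.92 with Al and 436 without Al in Col. IRT1, the iron transporter, had 18.6 and 98.8 in coi1-2 with and without Al and 15.9 and 172 in Col with and without Al, summed over 2 listed isoforms. For both genes coi1-2 was below Col without Al and above it with Al, with differences of 1.74 (1.42 to 2.06) for FRO2 and 1.02 (0.65 to 1.38) for IRT1. CYP82C4, which oxidises a coumarin that binds iron, was higher with Al in coi1-2 (7.97 and 3.38 with and without Al) and lower with Al in Col (7.06 and 13.7 with and without Al; Al response -0.91), and its difference was 2.03 (1.42 to 2.65). FIT, the regulator above FRO2 and IRT1, was not called: 28.4 and 96.5 in coi1-2 with and without Al, 23.7 and 98.5 in Col with and without Al, and 0.29 (-0.04 to 0.61). For the difference of responses the list had 3 higher and no lower calls, with 10 genes above 0, 8 below and a median of 0.10.

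Phosphate starvation genes gave 1 call in each direction among 18 of 19, with a median of 0.38. PS2 (AT1G73010), a phosphatase of that response, had 791 scaled RPKM with Al and 263 without Al in coi1-2, and 511 with Al and 350 without Al in Col, with a difference of 1.04 (0.95 to 1.14). RNS1, a secreted ribonuclease induced by phosphate lack and wounding, had 13.6 and 2.78 in coi1-2 with and without Al and 29.0 and 0.413 in Col with and without Al. Both of its coi1-2 values lay between the Col values, and the difference was -2.91 (-4.40 to -1.42).

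GolS2, a galactinol synthase of the raffinose pathway, had the second largest retained difference above 0 at a mean level of 5 RPKM or more. On chromosome 1 from 21207537 to 21209596, it stood at 76.3 scaled RPKM with Al and 2.97 without Al in coi1-2, and at 33.0 with Al and 7.88 without Al in Col. It was higher with Al in both genotypes, by 4.47 log2 units in coi1-2 and 2.00 in Col, and the difference was 2.47 (1.89 to 3.05). GolS4, of the same family, leaned the same way without a call (0.97, 0.08 to 1.86), while GolS1 (-0.63) and GolS3 (-0.36) lay below 0 with intervals that include 0. In the same list of 14 cold-response genes, CBF3 was called lower: 4.12 and 4.44 in coi1-2 with and without Al, against 8.45 and 0.356 in Col with and without Al, where 0.356 is 3 reads, and -3.48 (-5.22 to -1.75). Its tandem copy CBF2 was called at -1.26 but not retained, and CBF1 was not called (-0.69, -1.83 to 0.45). The median of the list was -0.08.

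**Figure D4:**
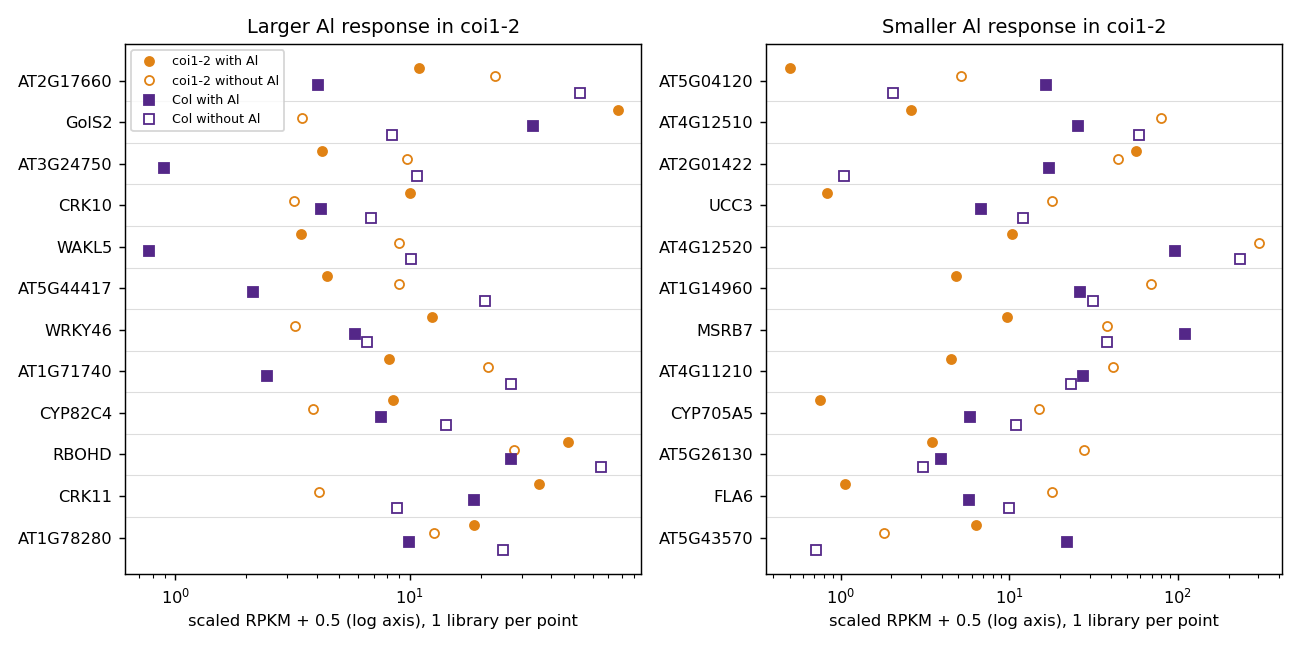
Scaled RPKM + 0.5 (log axis) in each of the 4 libraries for the 12 highest (left) and 12 lowest (right) retained differences among loci with a mean of at least 5 RPKM; orange circles are coi1-2, purple squares Col, filled with Al and open without Al. On the left, 11 of the 12 genes read higher in coi1-2 with Al than in Col with Al by at least 0.81 log2 units, and CYP82C4 by 0.16; on the right, coi1-2 with Al is the lowest point for most genes.

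Auxin genes gave 2 higher calls and 1 lower call among 32 of 36, with a median of 0.03. ABCB19, an auxin exporter, was lower with Al in both genotypes: 21.5 scaled RPKM with Al and 64.2 without Al in coi1-2, and 7.76 with Al and 71.0 without Al in Col. The libraries without Al were alike, Col with Al was the lowest, and the difference was 1.55 (1.298 to 1.81). Its relative ABCB1 (1.06) and the repressor gene IAA19 (-1.25) were called but not retained.

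Among the lowest retained differences were those of a pair of neighbouring genes. AT4G12510 and AT4G12520, which the files annotate as lipid-transfer-like proteins and which lie on chromosome 4, had 2.11 and 9.86 scaled RPKM in coi1-2 with Al, and 78.8 and 302 in coi1-2 without Al. In Col they had 24.9985 and 96.4 with Al, and 58.1 and 234 without Al. Both had less RNA with Al in both genotypes and lowest in coi1-2 with Al, with differences of -3.73 (-4.77 to -2.68) for AT4G12510 and -3.60 (-4.05 to -3.14) for AT4G12520. Their promoters are shown to let the likeness of the neighbours be seen; they are the 250 bases before the RefSeq gene start on TAIR10.1, at chr4:7417874-7418123 and chr4:7421829-7422078, both on the minus strand, 5′ to 3′, with no letters in capitals because none of the searched motifs occurs.
AT4G12510: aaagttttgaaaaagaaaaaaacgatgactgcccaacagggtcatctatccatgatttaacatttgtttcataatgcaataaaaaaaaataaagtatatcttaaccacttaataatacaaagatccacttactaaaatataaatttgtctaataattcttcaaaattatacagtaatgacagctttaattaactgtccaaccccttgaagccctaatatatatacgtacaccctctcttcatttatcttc
AT4G12520: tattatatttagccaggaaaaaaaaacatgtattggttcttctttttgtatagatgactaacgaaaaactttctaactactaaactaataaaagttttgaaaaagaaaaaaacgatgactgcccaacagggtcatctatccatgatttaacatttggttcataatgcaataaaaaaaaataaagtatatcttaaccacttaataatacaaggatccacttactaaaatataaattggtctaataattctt
Placed at the offset of their longest common run, 157 of 160 facing bases (98.1%) were identical, and reads of near-identical transcripts may be split between the loci. Of 52 such genes past the filter, a family counted after values were seen, 15 were called lower and none higher, and 11 were retained; the median was -0.82, or -0.38 with the length trend removed. The median length of these genes is 699 nt, against 1425 nt over all compared loci, so the length trend bears on them.

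In UCC3, FLA6, AT4G11210, XTH12, XTH13 and CYP705A5, coi1-2 with Al was the lowest library and coi1-2 without Al the highest. UCC3, a uclacyanin, had 0.328 scaled RPKM with Al and 17.382 without Al in coi1-2, and 6.30 with Al and 11.6 without Al in Col, the value of 0.328 being 2 reads. FLA6, a fasciclin-like arabinogalactan protein, had 0.562 and 17.5 in coi1-2 with and without Al and 5.28 and 9.45 in Col with and without Al, the lowest value being 3 reads. Their differences were -3.61 (-5.50 to -1.71) and -3.30 (-4.98 to -1.62), and in both genes coi1-2 was the higher genotype without Al and the lower one with Al. AT4G11210, of the dirigent-like family, stood at 4.05 and 40.7 in coi1-2 with and without Al and at 27.0 and 22.7 in Col with and without Al, and was called at -3.42 (-4.27 to -2.57). XTH12, which cuts and rejoins xyloglucan, had -2.26 (-2.71 to -1.80), and its neighbour XTH13 had -2.35 (-4.02 to -0.69). CYP705A5, an enzyme of thalianol modification, had 0.252 and 14.4 in coi1-2 with and without Al, and 5.39 and 10.5 in Col with and without Al, where 0.252 is 3 reads, with a difference of -3.41 (-5.00 to -1.83). The neighbouring acyltransferase gene AT5G47980 was also retained (-2.52).

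Of the 11 root hair genes all passed the filter, 3 were called lower and none higher, 8 lay below 0, and the median was -0.25, or -0.65 with the length trend removed. PRP1, a proline-rich wall protein, had 27.1 scaled RPKM with Al and 85.8 without Al in coi1-2, and 81.1 with Al and 39.2 without Al in Col, and so moved in opposite directions, with a difference of -2.69 (-2.96 to -2.41). PRP3, its root hair relative, had 184 and 493 in coi1-2 with and without Al and 469 and 459 in Col with and without Al. EXPA18, a root hair expansin, had 16.7 and 74.3 in coi1-2 with and without Al and 49.2 and 73.5 in Col with and without Al. For PRP3 and EXPA18 the library of coi1-2 with Al lay below the other 3, and the differences were -1.45 (-1.56 to -1.34) and -1.54 (-1.90 to -1.19). The other markers of the same cells were not called, and 3 of the 11 genes lay above 0. LRX1, a leucine-rich repeat extensin, had -0.69 (-0.80 to -0.58). With the length trend removed it was called at -1.04, and the list then had 4 lower calls. RSL4, a root hair regulator, had -1.18 (-2.62 to 0.26), from 6 reads in coi1-2 with Al. EXPA7 had 8.69 and 76.8 in coi1-2 with and without Al and 11.5 and 84.8 in Col with and without Al (-0.24, -0.78 to 0.29). RHD2, the hair NADPH oxidase, had -0.25 (-0.64 to 0.14). The summed level of the 11 genes was 370 and 1050 in coi1-2 with and without Al, and 805.9 and 975.7 in Col with and without Al. The part of the amount of root hair in these values was not tested.

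Genes of the cytokinin list, type-A response regulators and the synthesis genes IPT3 and IPT5, lay on the same side before the length trend was removed. Of 12 genes 9 passed the filter, and all 9 had differences below 0, with a median of -0.86 (-0.92 with the length trend removed); 3 were called lower and retained. ARR4, a type-A response regulator that cytokinin induces, had 85.1 scaled RPKM with Al and 103 without Al in coi1-2, and 199 with Al and 61.7 without Al in Col. ARR3, closely related to it, had 21.4 and 18.4 in coi1-2 with and without Al and 40.0 and 11.5 in Col with and without Al. Both were higher with Al in Col and near level in coi1-2, with differences of -1.95 (-2.14 to -1.77) for ARR4 and -1.55 (-2.001 to -1.09) for ARR3. ARR6 instead was lower with Al in coi1-2 (4.46 and 25.2 with and without Al) and near level in Col (13.4 and 11.2 with and without Al), with a difference of -2.62 (-3.33 to -1.91). The uncalled members ARR9 (-0.80, -1.19 to -0.40), ARR5 (-0.39, -0.99 to 0.21) and ARR7 (-0.28, -1.38 to 0.82) lay nearer 0. With the length trend removed ARR7 stood at 0.13, above 0.

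Among photosynthesis genes of green tissue, used as markers of shoot material in root samples, 9 had a called increase with Al in coi1-2 and 12 in Col, and none a called decrease. Of 15 genes 13 passed the filter, all 13 had differences below 0, 9 were called lower and 6 retained, and the median was -1.22. LHCB1.2, a light-harvesting protein of photosystem II, had 42.1 scaled RPKM with Al and 5.37 without Al in coi1-2, and 69.8 with Al and 0.846 without Al in Col. It was higher with Al in both genotypes but started higher in coi1-2, with a difference of -2.85 (-3.92 to -1.78). RBCS1A, of the Rubisco small subunit, had 11.2 and 3.93 in coi1-2 with and without Al and 29.2 and 3.68 in Col with and without Al, and -1.42 (-2.20 to -0.65). The other retained members were LHCB1.1 (-2.32), LHCB2.2 (-2.36), LHCB2.1 (-1.61) and LHCB3 (-1.37), several of them near-identical copies. The summed level of the 15 genes was 456.8 and 163.1 in coi1-2 with and without Al, and 818 and 122.7 in Col with and without Al, with 1 or 2 of the 15 at 0 reads in each library. Whether these genes moved within root cells or with shoot material was not tested.

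MSRB7 and AT5G04120 were also among the lowest retained differences. MSRB7, a methionine sulfoxide reductase on chromosome 4, had 9.16 scaled RPKM with Al and 37.5 without Al in coi1-2, and 109 with Al and 37.5 without Al in Col. Its level without Al was the same in both genotypes, and with Al it was lower in coi1-2 and higher in Col, with a difference of -3.51 (-3.99 to -3.02) from 2 listed isoforms. The nearby MSRB9 had 59.0 and 94.5 in coi1-2 with and without Al and 168 and 97.7 in Col with and without Al, and -1.45 (-1.70 to -1.21). Class III peroxidases, which act in walls, had 2 higher and 8 lower calls among 60 of 66, with a median of -0.21. Beside these stand 2.84% higher and 4.19% lower calls over all compared loci. PRX52, named for lignin synthesis, was higher with Al by 5.59 log2 units in coi1-2 and 7.89 in Col; it had 315 and 6.04 in coi1-2 with and without Al and 370 and 1.06 in Col with and without Al. The gap lay without Al, and the difference was -2.30 (-3.17 to -1.42). AT5G04120, of the phosphoglycerate mutase family, had the lowest value of all loci named here: 0 reads in coi1-2 with Al and 4.70 scaled RPKM in coi1-2 without Al, and 15.9 with Al and 1.55 without Al in Col. Against a floor of 3 reads in the library it was at least 10.2-fold lower with Al than without Al in coi1-2; the printed difference of -6.38 (-10.49 to -2.28) depends on the pseudocount and is no bound. AT2G01422, which the files leave without a description, had 55.7 and 43.8 in coi1-2 with and without Al and 16.7 and 0.542 in Col with and without Al, the last being 4 reads; it was higher in coi1-2 in either treatment, and its difference was -3.70.

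**Figure D5:**
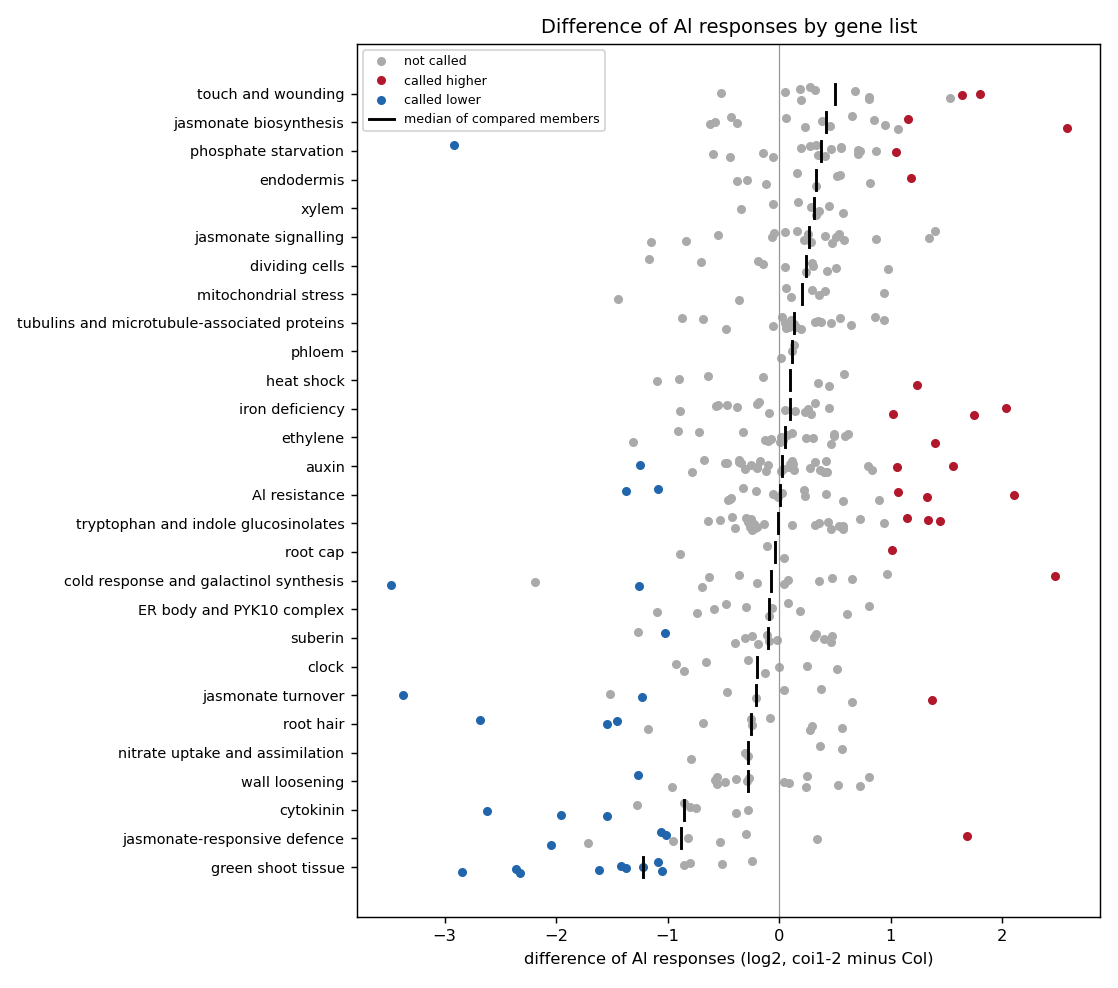
Difference of Al responses (log2, coi1-2 minus Col) of every gene past the filter in the 28 lists with at least 3 such genes, sorted by the list's median (black bar); red and blue points are called higher and lower. Cytokinin (median -0.86), jasmonate-responsive defence (-0.89) and green shoot tissue (-1.22) lie lowest, and touch and wounding (0.50) and jasmonate biosynthesis (0.42) highest. With the length trend removed, root hair (-0.65) lay below jasmonate-responsive defence (-0.56), and phosphate starvation (0.40) above jasmonate biosynthesis (0.30).

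The remaining lists had few calls or none. Mitochondrial stress (8 of 9 genes, median 0.20), nitrate uptake (5 of 5, -0.28), tubulins and microtubule-associated proteins (21 of 22, 0.13), clock genes (8 of 12, -0.20), and the markers of xylem (8 of 8, 0.31), phloem (3 of 4, 0.12) and dividing cells (11 of 12, 0.24) had no called gene. Of 14 suberin genes 10 were called higher and 1 lower with Al in each genotype (median responses 1.55 in coi1-2 and 1.41 in Col), and MYB41, a regulator of suberin, was their only call (-1.02, not retained). Heat shock genes had 1 call among 8 of 11, HSP70-4 at 1.24, not retained (median 0.10), and wall loosening genes 1 among 16 of 19, XTH26 at -1.27, not retained (median -0.28). Of 9 endodermis markers past the filter 7 were called lower with Al in each genotype; in the difference PER64, a peroxidase of the Casparian strip, was called, with 29.7 and 130 scaled RPKM in coi1-2 with and without Al, 12.3 and 125 in Col with and without Al, and 1.18 (0.80 to 1.56), and the median was 0.33. Root cap markers had 1 call among 4 of 5, BRN2 at 1.01 (0.27 to 1.75), and a median of -0.04. Of 7 seed storage genes 1 passed the filter and was not called.

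ERF and DREB factors had 3 higher and 4 lower calls among 85, NAC factors 1 and 2 among 66, and MYB factors 3 and 1 among 74. Cytochromes P450 had 7 and 2 among 132, and UDP-glycosyltransferases 2 and 2 among 88. Over all compared loci 2.84% were called higher and 4.19% lower, and no excess is read from these counts. Glutathione S-transferases had no higher and 3 lower calls among 41, none of them retained, and LEA proteins no higher and 3 lower among 53, 1 retained. None of the 47 genes annotated as histones was called. Nuclear genes annotated as ribosomal proteins, among them at least 1 mitochondrial one, had no higher and 7 lower calls among 294 with a median of -0.31, which became 0.03 with the length trend removed, with 4 higher and no lower calls.

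Some retained calls lay beside each other; the same count over other loci was not made. Of the 563 loci, 72 stood in 33 runs of retained loci of the same direction at most 2 positions apart on the gene list, 12 of higher and 21 of lower calls, and no run was longer than 3; this was looked for after values were seen, and many of these runs are tandem copies. Besides those named above, they included the GRAM-domain genes AT5G23350, AT5G23360 and AT5G23370 (1.49, 1.32 and 1.68) and the lipid-transfer-like genes AT4G22485, AT4G22490 and AT4G22505 (-1.99, -2.14 and -2.90). The annexins ANNAT3 and ANNAT4, calcium-binding membrane proteins, stood at -1.92 and -1.91. By chromosome, retained higher calls made up between 1.17% and 1.81% of the compared loci and retained lower calls between 1.44% and 2.15% on the 5 nuclear chromosomes.

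Besides the W-box core given above, 4 other motifs were counted. On both strands of the 250 bases before the RefSeq gene start, the G-box CACGTG, bound by MYC2, stood in 6.4% of promoters of retained higher loci, 7.02% of retained lower loci and 7.06% of all compared loci. In the 201 promoters of retained lower loci that were higher with Al in Col it stood in 9.95%, beside 7.25% for all loci higher with Al in Col. In the 72 promoters of retained higher loci that were higher with Al in coi1-2 it stood in 8.33%, beside 7.93% for all loci higher there. Its variant CACATG stood in 12.8%, 14% and 11.2% of the higher, lower and all promoters, the GCC-box GCCGCC in 2%, 1.34% and 1.97%, and the cold-response core CCGAC in 8.8%, 10.4% and 12.8%. None of these motifs contains another, a match is not a binding site, and no match says only that the letters are not in this window.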

How the data were processed

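Root poly(A) RNA was fragmented, copied with random hexamers and sequenced without a described strand step, per the labels' protocols, so antisense overlaps cannot be separated. The deposited tables list, per transcript, whole-number counts of unique reads, RPKM, the percent of the transcript covered, and its length, per the file headers. Neither aligner nor build is named in the sources used here; 23185 of the 23189 loci found in the TAIR10.1 gene table overlap their position there. A transcript not listed was taken as 0 reads, and 26912 transcripts were summed into 23381 loci; reads common to isoforms or near-identical copies may be missing.

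Samples were grouped by labelled genotype and treatment. The deposited RPKM values were divided by TMM factors (edgeR 4.0.16, R 4.3.3), and loci with at least 1 RPKM in 1 library kept. A response was called at 1 log2 unit with an exact (Clopper-Pearson) 95% interval of the read ratio that excludes no change. The length trend is a lowess (statsmodels 0.14.6, fraction 0.3) over log2 length, taken out of each response. No p-value was computed. Named are the 12 highest and 12 lowest retained calls averaging 5 RPKM or more, up to 3 members of each list, genes called in opposite directions and 6 fixed genes, some left out for length; further members are named beside them. The comparison, its 29 gene lists and the rule for names were chosen with earlier results of these data known. Promoter sequences are RefSeq's, TAIR10.1. The 10 alternatives are pseudocounts, filters, scaling (DESeq2 1.42.0 size factors included), length, interval, size and isoforms.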

Additional observations from a re-analysis of the deposited data

Results flagged for a closer look

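Genes called in opposite directions by Al in coi1-2 and Col are listed here because the coi1-2 ratio and the Col ratio had opposite signs. Each ratio compares 1 library with Al and 1 without, so this difference was not tested. There were 11 such genes, 7 of them with a mean of at least 5 RPKM. Lower with Al in coi1-2 and higher with Al in Col were AT5G04120 (difference -6.38), IQD20 (-3.51, from 2 reads in coi1-2 with Al), MSRB7 (-3.51), AT5G19110 (-2.80), PRP1 (-2.69), AT4G18422 (-2.63), ELIP2 (-2.56), SDR1 (-2.49, with 2 listed isoforms) and AT1G68238 (-2.37). AT5G19110, an aspartyl protease-like gene, had 4.24 scaled RPKM with Al and 11.5 without Al in coi1-2, and 69.1 with Al and 24.9 without Al in Col. ELIP2, an early light-induced protein, had 7.06 and 15.7 in coi1-2 with and without Al, and 12.6 and 4.28 in Col with and without Al. Higher with Al in coi1-2 and lower with Al in Col were LOX4 (2.58) and CBF4 (2.56), a drought-induced relative of the cold regulators, which had 2.66 and 0.829 in coi1-2 with and without Al, and 1.71 and 4.95 in Col with and without Al.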

How the results depend on the processing

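The 497 higher calls became 821 and 327 with pseudocounts of 0.1 and 1, 1227 without scaling, 273 with a stricter counting interval and 24 at 2 log2 units. The 733 lower calls became 334 without scaling, 410 with the length trend removed, 453 and 95. Of lower calls, the 535 higher with Al in Col became 184 without scaling, 212 with the trend removed, 342 with the stricter interval and 42 at 2 log2 units, and the 136 lower with Al in coi1-2 became 82 and 25 under the last 2. Of higher calls, the 335 lower with Al in Col became 567 and 203 with pseudocounts of 0.1 and 1, 976 without scaling, 177 with the trend removed, 177 with the stricter interval and 10 at 2 log2 units, and the 92 higher with Al in coi1-2 became 159 with a pseudocount of 0.1, 58 and 5. The 11 opposite genes became 7 with a pseudocount of 1, 6 without scaling, 3 with the trend removed, 6 with the stricter interval and 1 at 2 log2 units. The rise of the median difference over length deciles, 1.01, was 0.742 with no filter and 0.106 with the trend removed, by construction. Smaller counts at stricter limits follow from those limits; the cause of the other changes was not tested. None of the 114 named genes was counted as reversed under an alternative that gave it a value. Of them, 98 had a value with the filter of 5 RPKM and 107 among loci with 1 listed isoform. In all, 22 moved without scaling and 25 with the length trend removed. Differences near 0 could still change sign: EXPA7, at -0.24, became 0.0047 with the trend removed and 0.027 without scaling. Retained calls kept their sign in both settings by the rule that chose them. No paired analysis was possible because each group has 1 library and the labels give no replicate number. For the same reason no library could be left out. Genes with few reads in a library, such as JOX3, ALMT1 and CBF3, have intervals over 3 log2 units wide.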

Other observations

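The median differences of both organelle genomes lay below 0, with 17 of 78 plastid and 7 of 39 mitochondrial loci above 0, and the families in these paragraphs were counted after values were seen. Of the 78 plastid-encoded loci past the filter, 1 was called higher and 13 lower, 7 of the lower calls were retained (8.97%, against 1.78% over all loci), and the median difference was -0.71, or -0.48 with the length trend removed. Of the 39 mitochondria-encoded loci past the filter, 6 were called lower, 4 retained (10.3%), and the median was -0.93, or -0.49 with the trend removed. The median Al response of the plastid loci was 0.42 in coi1-2 and 1.11 in Col, and that of the mitochondrial loci 0.93 in coi1-2 and 1.94 in Col. These RNAs are mostly not polyadenylated, their median lengths are 406 and 542 nt, and the part of poly(A) selection and length was not tested.

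Leucine-rich repeat kinases, receptors with long transcripts (median 2740 nt), had 17 higher and no lower calls among 138, with a median of 0.52. With the length trend removed 3 were called and the median was 0.16. Arabinogalactan proteins, short wall glycoproteins (median 790 nt), had 10 lower and no higher calls among 48, with a median of -0.66, and 4 lower calls and -0.26 with the trend removed. In both families the direction was that of the length trend.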
